A study of Mus musculus with 8 samples.

Results

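Interferon-stimulated genes are the antiviral programme that cells switch on when type I interferon binds its receptor IFNAR1-IFNAR2. The receptor-bound kinases JAK1 and TYK2 phosphorylate STAT proteins, STAT2 among them, and a complex that contains STAT2 and IRF9 binds the interferon-stimulated response element in promoters. The induced proteins sense viral nucleic acid, degrade or sequester viral RNA, block entry or budding of virus, and feed back on the receptor. In liver both hepatocytes and resident macrophages can respond in this way, and adenovirus vectors are known inducers of the programme.

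The genes described here are 35 mouse genes of this programme, chosen by symbol, out of 55536 genes with an identifier in the counts. Livers came from 2-month-old, lean, wild-type C57BL/6 mice that were fasted overnight and killed 1 week after an injection of 0.1 OD of adenovirus. In the shEif4ebp3 group (n = 4) the virus carried a hairpin against Eif4ebp3, and in the shLacZ group (n = 4) a hairpin against the bacterial gene lacZ, so all 8 samples came from virus-treated liver and none without virus was compared. Neither the labels nor the files name the promoter that drives the hairpin, the cells the virus entered, or whether each sample is a separate animal. The p-values therefore describe only how far these samples scatter, which may be technical.

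Total estimated counts were 25330306 to 32389444 in the shEif4ebp3 samples and 24371461 to 27079278 in the shLacZ samples, and all 35 genes passed the filter on low counts. Eif4ebp3, which encodes a repressor of cap-dependent translation, had 9.62, 13.9, 37.2 and 19.5 CPM in shEif4ebp3 replicates 1 to 4, against 289, 215, 204 and 49.3 CPM in shLacZ replicates 1 to 4. The groups did not overlap, and shLacZ replicate 4 lay nearest to the knockdown samples. Alb, a hepatocyte marker, averaged 42100 CPM in shEif4ebp3 and 40800 CPM in shLacZ samples, and was 1 of only 2 hepatocyte markers of 10 that were not called lower. CPM is a gene's count per 1000000 counts of its library, with library totals adjusted by the trimmed mean of M values (TMM), which sets the median gene near 0 change. Without those scaling factors the log2 fold changes of all genes shifted upward by a median of 0.567, so every change below is relative to the median gene.

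The promoters of these genes show what the programme shares at the level of sequence, and 25 of the 35 genes had a promoter window in the RefSeq table (GRCm38.p6), from 250 bases before the start to 50 after it. The core letters of the interferon-stimulated response element, GAAA, any 2 bases and GAAA again, searched on both strands, were in the windows of 13 of these 25 genes (52%), and in those of 1079 of all 27025 genes in the table (3.99%). Matches may overlap each other. The other 10 genes, without a window here, are Mx1, Mx2, Parp9, Parp14, Rtp4, Usp18, Dhx58, Zbp1, Ifi27l2a and Oas2. The stretches of 250 bases before the start are printed for Oas3, Oas1a, Isg15 and Trim30a, which had the largest fold changes among genes with a match upstream of the start. Capitals mark the matches.
Oas3, chr5:120777660-120777909, minus strand: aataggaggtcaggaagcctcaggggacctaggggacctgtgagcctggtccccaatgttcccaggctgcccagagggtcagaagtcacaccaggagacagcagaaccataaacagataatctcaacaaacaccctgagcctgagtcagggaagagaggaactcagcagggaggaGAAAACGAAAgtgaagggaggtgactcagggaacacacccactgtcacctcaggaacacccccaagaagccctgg
Oas1a, chr5:120907526-120907775, minus strand: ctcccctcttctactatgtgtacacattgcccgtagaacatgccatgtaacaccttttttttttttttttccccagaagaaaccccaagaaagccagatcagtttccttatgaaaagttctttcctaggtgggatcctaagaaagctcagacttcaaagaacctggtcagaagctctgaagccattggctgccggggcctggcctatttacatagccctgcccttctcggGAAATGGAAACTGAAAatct
Isg15, chr4:156200819-156201068, minus strand: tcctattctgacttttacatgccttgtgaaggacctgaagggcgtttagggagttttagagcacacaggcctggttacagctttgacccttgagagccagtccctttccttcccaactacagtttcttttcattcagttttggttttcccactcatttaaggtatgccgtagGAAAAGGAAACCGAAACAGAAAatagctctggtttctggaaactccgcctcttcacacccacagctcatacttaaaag
Trim30a, chr7:104465194-104465443, minus strand: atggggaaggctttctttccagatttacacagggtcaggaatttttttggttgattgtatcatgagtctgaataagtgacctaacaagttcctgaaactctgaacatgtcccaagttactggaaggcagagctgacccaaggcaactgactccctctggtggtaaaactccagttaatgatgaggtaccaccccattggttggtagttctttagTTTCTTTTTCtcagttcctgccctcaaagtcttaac

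Isg15 held 3 overlapping matches that begin 78, 72 and 66 bases before the start, and Oas1a held 2 that begin 20 and 14 bases before it. Of the 13 genes with a match 10 were called higher in the knockdown samples, and of the 12 genes whose window held none, 10 were too (Dtx3l and Irf9 were not). A match is a description of letters, and a window without it says nothing about the factor. The IFIT genes lie side by side on chromosome 19, and Ifit3, Ifit3b and Ifit1 share a pair of matches. These 64-base stretches, chosen after the expression values were known, are identical between Ifit3 and Ifit3b, with a shorter spacer in Ifit1.
Ifit3, chr19:34583365-34583428, plus strand: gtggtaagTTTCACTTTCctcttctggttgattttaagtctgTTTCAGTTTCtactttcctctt
Ifit3b, chr19:34607761-34607824, plus strand: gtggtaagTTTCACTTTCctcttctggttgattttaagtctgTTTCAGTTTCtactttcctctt
Ifit1, chr19:34640777-34640840, plus strand: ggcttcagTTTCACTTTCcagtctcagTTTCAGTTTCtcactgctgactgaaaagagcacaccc

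Most of the programme was higher in the knockdown livers. Of the 35 genes, 29 were called higher and 0 lower by edgeR's quasi-likelihood test (adjusted p under 0.05), and 6 were not called: Stat2, Irf9, Ifit1, Ifit3b, Mx2 and Dtx3l. Of all 15375 genes tested, 57.2% were called in either direction, 29.5% higher and 27.8% lower. The same shares stand beside the counts of the smaller groups below. The median log2 fold change of the 35 genes was 0.67 (1.59-fold), against a median of 0 over all genes tested, and the values ran from -0.11 for Irf9 to 1.49 for Zbp1. A fold of at least 2 was reached by 12 of the 35 genes, and by 15.9% of all genes. The largest difference, that of Zbp1, was 2.80-fold. Groups did not overlap, with knockdown higher, for 25 of the 35 genes and for 27.4% of all genes. The 35 genes together summed to between 1660 and 1850 CPM in the shEif4ebp3 samples and to between 1010 and 1290 CPM in the shLacZ samples. With total-count scaling 33 were called higher and 0 lower, where 63.9% of all genes were called higher and 7.73% lower. Under a test against a minimum of 1.5-fold, 14 were called higher, and 15.6% of all genes. The authors' deposited table lists an adjusted p under 0.05 for 29 of the 35 genes and marks 11 as significant, where 6.76% of all genes listed there are marked. That 6.76% was taken without a filter on low counts, which all 35 genes passed, so it is too low a share to set beside the 11. The share of all genes with an adjusted p under 0.05 there was not taken.

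**Figure D1:**
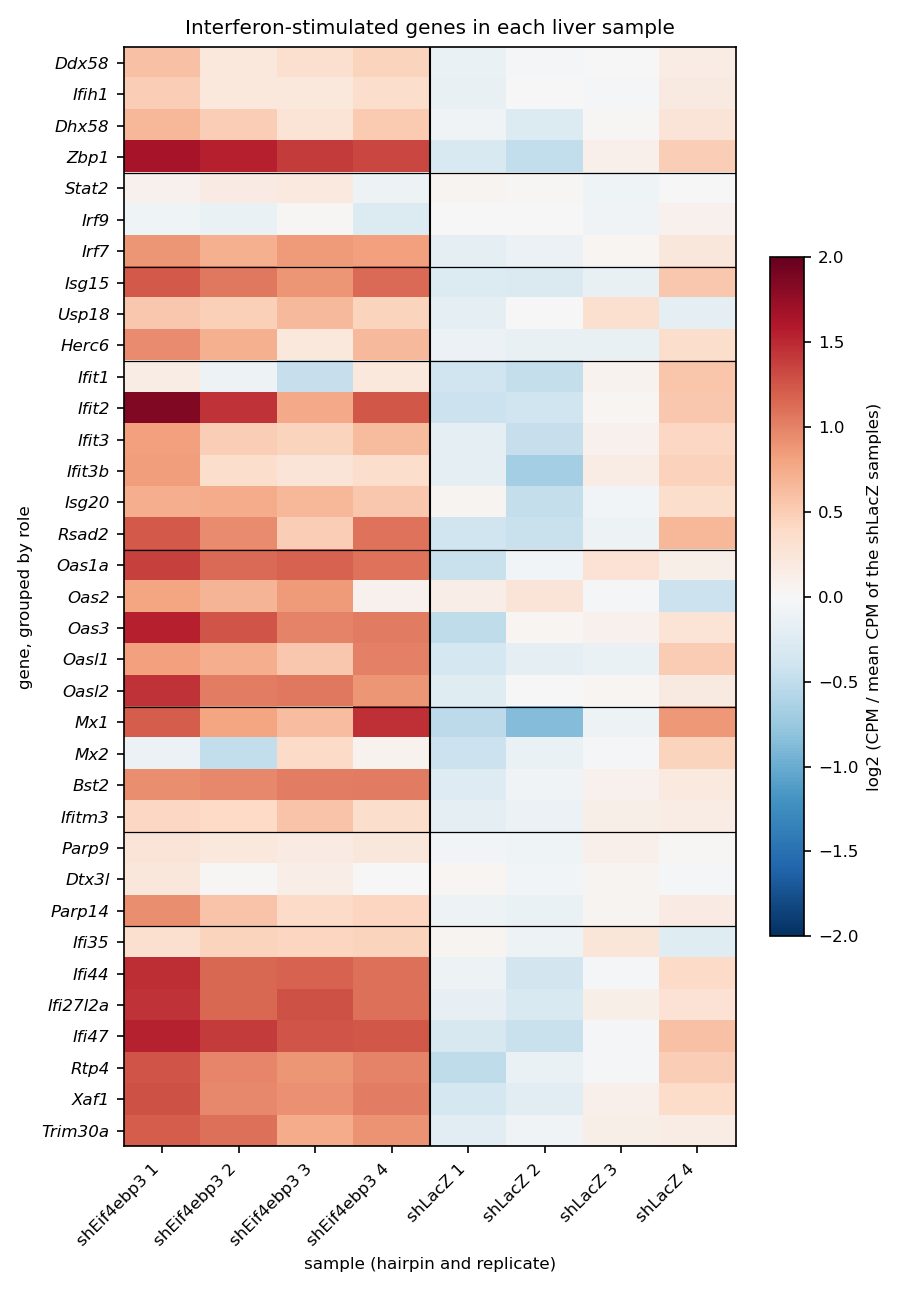
Heat map of log2 (CPM divided by the mean CPM of the 4 shLacZ samples) for the 35 genes (rows, grouped by role with thin lines) in the 8 samples (columns, shEif4ebp3 left of the thick line). Zbp1, Ifit2 and Ifi47, at 1.36 to 1.49 by the fitted log2 fold change, are red in the shEif4ebp3 samples, with Ifit2 paler in replicate 3. Stat2, Irf9 and Mx2 stay pale, and shLacZ replicate 4 is the reddest control column.

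**Figure D2:**
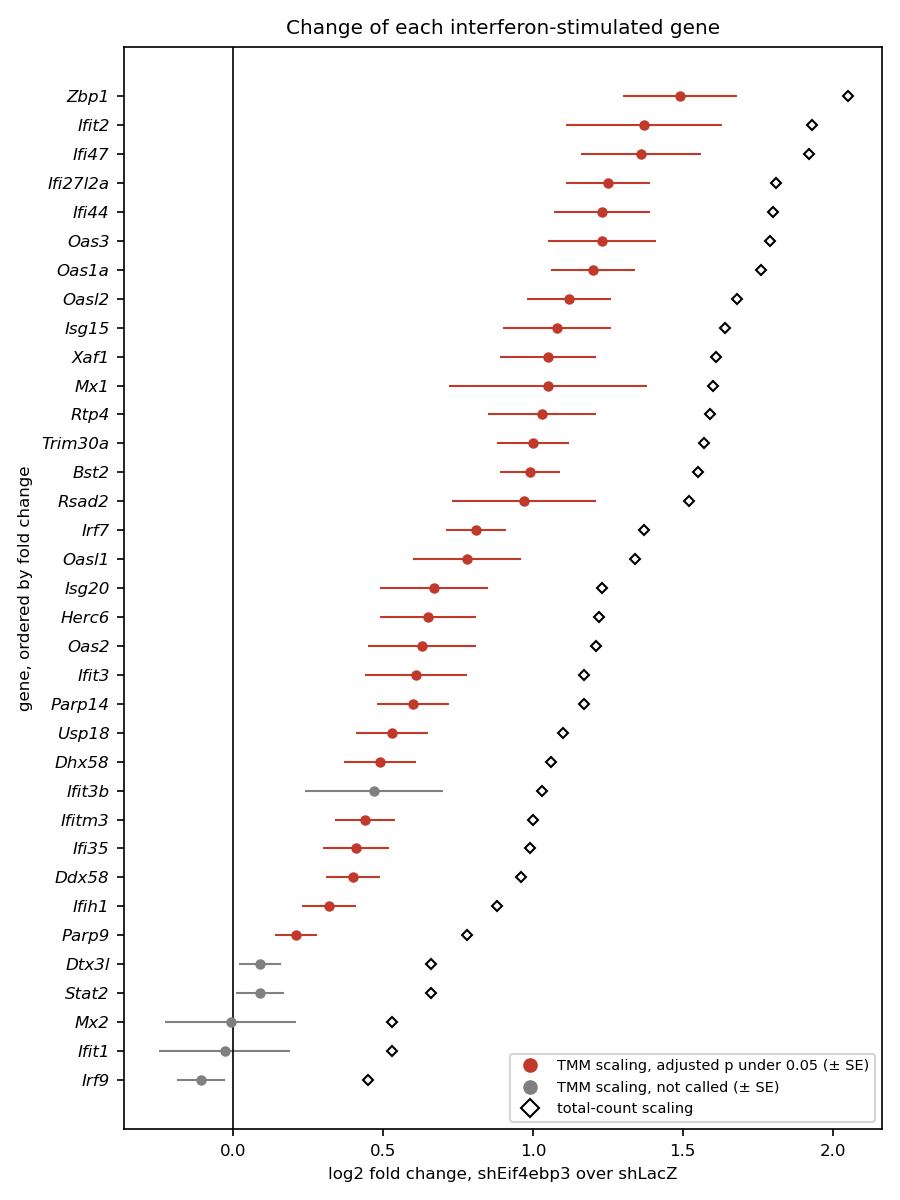
Log2 fold change of each of the 35 genes, shEif4ebp3 over shLacZ, with its standard error under TMM scaling (filled circles, red where the adjusted p was under 0.05) and under total-count scaling (open diamonds). Under TMM scaling the values run from -0.11 to 1.49, and total-count scaling moves every gene to the right by a similar amount.

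The sensors of viral nucleic acid were all higher, but to unequal degrees. Zbp1, which binds Z-form nucleic acid and starts necroptosis (chromosome 2, 173206612 to 173218923), had 53.4, 50.3, 44.9 and 43 CPM in shEif4ebp3 replicates 1 to 4, against 13.8, 12.1, 18.3 and 24.1 CPM in shLacZ replicates 1 to 4. The knockdown samples all lay above the controls, by 1.49 ± 0.19 on the log2 scale (SE; adjusted p = 5.69e-05). Among the RIG-I-like receptors, which recognise viral double-stranded RNA in the cytosol, the rise was smaller. Ifih1, which encodes MDA5, had 60.4, 49.3, 49.6 and 54.6 CPM in shEif4ebp3 and 38.8, 42.4, 41.8 and 48.3 CPM in shLacZ samples, a log2 difference of 0.32 ± 0.09 (SE; adjusted p = 0.0129). The lowest knockdown sample lay just above the highest control. Ddx58, which encodes RIG-I, rose by 0.40 ± 0.09 to 41.1 ± 4.52 CPM in shEif4ebp3, against 31.2 ± 2.36 CPM in shLacZ samples (SD, n = 4 each). Dhx58, which encodes their regulator LGP2, rose by 0.49 ± 0.12 to 23.9 ± 2.62 CPM in shEif4ebp3, against 17.0 ± 2.63 CPM in shLacZ samples, and shares exon bases with the antisense gene Dhx58os.

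Of the transcription factors, only Irf7 was called under TMM scaling. Under total-count scaling all 3 were called higher, as were 63.9% of all genes. Irf7, the factor that amplifies interferon alpha production (chromosome 7, 141262706 to 141266481), had 135, 120, 132 and 130 CPM in shEif4ebp3 replicates 1 to 4, against 64.4, 67.8, 75.6 and 86.3 CPM in shLacZ replicates 1 to 4. Groups were well apart, with a log2 difference of 0.81 ± 0.10 (SE; adjusted p = 4.04e-05). Stat2 and Irf9, which encode parts of the complex that type I interferon activates, were not called under TMM scaling. Stat2 had 99.5, 105, 108 and 87.1 CPM in shEif4ebp3 and 97.8, 95.8, 88.9 and 92.9 CPM in shLacZ samples, a log2 difference of 0.09 ± 0.08 (SE; adjusted p = 0.369). Irf9 had 41.2, 40.1, 44.3 and 36.2 CPM in shEif4ebp3 and 43.8, 43.4, 41.6 and 46.2 CPM in shLacZ samples, a log2 difference of -0.11 ± 0.08 (SE; adjusted p = 0.244). The groups overlapped for both genes. With total counts Stat2 was at 0.66 (adjusted p = 5.45e-05) and Irf9 at 0.45 (adjusted p = 0.00113). The median gene lay at 0.56 under that scaling, above Irf9 and near Stat2. The exons of Irf9 overlap those of Rnf31 on the same strand, and those of Irf7 overlap Phrf1 on the opposite strand, so their counts are less certain.

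Genes of the ISG15 system, in which a ubiquitin-like protein is attached to and removed from targets, were all higher. Isg15, the modifier itself (chromosome 4, 156199424 to 156200818), had 20.4, 18.2, 16.0 and 19.2 CPM in shEif4ebp3 replicates 1 to 4, against 7.25, 7.15, 7.87 and 12.6 CPM in shLacZ replicates 1 to 4. Its log2 fold change was 1.08 ± 0.18 (SE; adjusted p = 0.000387), with shLacZ replicate 4 standing above the other controls. Herc6, the main ISG15 ligase in mouse, rose by 0.65 ± 0.16 (adjusted p = 0.00517). Its groups overlapped, as the lowest knockdown sample had 22.2 CPM and the highest control, replicate 4, had 24.4 CPM. Herc6 shares 1269 exon bases with Gm45193 on the same strand and had fractional counts in 6 samples, so its counts are less certain. Usp18, which removes ISG15 and also blocks IFNAR2 signalling, had 36.3, 34.5, 39.0 and 33.9 CPM in shEif4ebp3 and 21.6, 24.9, 31.0 and 21.9 CPM in shLacZ samples. That was a rise of 0.53 ± 0.12 (SE; adjusted p = 0.00243), and here the highest control was replicate 3.

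The IFIT genes, neighbours on chromosome 19 whose products bind viral RNA and block its translation, split. Ifit2 (34550694 to 34576419) had 34.2, 25.8, 16.1 and 22.4 CPM in shEif4ebp3 replicates 1 to 4, against 7.10, 7.24, 9.82 and 13.9 CPM in shLacZ replicates 1 to 4. It rose by 1.37 ± 0.26 (log2, SE; adjusted p = 0.000905), the largest change of the family. Ifit1 (34640871 to 34650009), which binds RNA whose cap lacks methylation, had 18.1, 15.3, 11.9 and 18.9 CPM in shEif4ebp3 and 12.5, 11.8, 17.2 and 24.1 CPM in shLacZ samples. Its log2 difference was -0.03 ± 0.22 (SE; adjusted p = 0.917), and the highest of all 8 samples was shLacZ replicate 4. Under total-count scaling the Ifit1 difference was 0.53 (adjusted p = 0.0884).

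Ifit3 had 39.0, 31.0, 30.0 and 34.1 CPM in shEif4ebp3 and 19.4, 15.9, 23.4 and 29.3 CPM in shLacZ samples, a rise of 0.61 ± 0.17 (SE; adjusted p = 0.00941). Its near copy Ifit3b had 10.6, 7.55, 7.04 and 7.56 CPM in shEif4ebp3 and 5.23, 3.69, 6.58 and 8.17 CPM in shLacZ samples, a difference of 0.47 ± 0.23 that did not pass (adjusted p = 0.102). Values of both are uncertain, because their annotated transcripts are 97.8% identical over 1700 aligned positions and their estimated counts were fractional in all 8 samples. Ifit3b was called without shLacZ replicate 4, at 0.66 (adjusted p = 0.0202), in replicates 1 to 3 of each group alone, at 0.70 (adjusted p = 0.0286), and under total-count scaling, at 1.03 (adjusted p = 0.00426).

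Ratios between neighbouring genes within a sample do not depend on scaling. The ratio of Ifit2 to Ifit1 counts was 1.89, 1.69, 1.35 and 1.19 in shEif4ebp3 replicates 1 to 4, against 0.567, 0.613, 0.572 and 0.578 in shLacZ replicates 1 to 4. The ratio was thus nearly constant among the controls and higher in every knockdown sample. Ratios of this kind were compared for all 67 pairs of genes within a role group by a two-sided exact permutation test. The p was 0.0286, the smallest that 4 against 4 allows, for 21 pairs (31.3%), Ifit2 to Ifit1, Irf7 to Stat2 and Bst2 to Ifitm3 among them. After Benjamini-Hochberg adjustment over the 67 pairs the smallest p was 0.0912, so no pair passed at 0.05. Pairs of other genes were not compared, and the 67 pairs share genes, so the 31.3% cannot be read as particular to these genes. The ratio of Ifit3 to Ifit3b was 3.69, 4.11, 4.26 and 4.50 in shEif4ebp3 and 3.69, 4.33, 3.56 and 3.60 in shLacZ samples (exact permutation p = 0.257, adjusted p = 0.325).

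The other inhibitors of viral RNA were higher. Rsad2, which encodes viperin, an enzyme that makes a chain-terminating nucleotide, had 79.8, 65.9, 47.8 and 72.5 CPM in shEif4ebp3 replicates 1 to 4, against 25.8, 24.9, 31.7 and 53.8 CPM in shLacZ replicates 1 to 4. It rose by 0.97 ± 0.24 (SE; adjusted p = 0.00517), although shLacZ replicate 4 exceeded shEif4ebp3 replicate 3. Isg20, an RNA exonuclease, had 4.33 ± 0.267 CPM in shEif4ebp3 and 2.72 ± 0.621 CPM in shLacZ samples (SD, n = 4 each), and it rose by 0.67 ± 0.18 (SE; adjusted p = 0.00957).

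All 5 OAS family genes among the 35 rose. These proteins are activated by double-stranded RNA, and the catalytic ones make the second messenger that switches on RNase L. Oas3, which responds to long RNA (chromosome 5, 120753098 to 120777661), had 17.9, 14.5, 12.0 and 12.4 CPM in shEif4ebp3 replicates 1 to 4, against 4.27, 6.21, 6.43 and 7.35 CPM in shLacZ replicates 1 to 4, a rise of 1.23 ± 0.18 (SE; adjusted p = 0.000187). Oas1a, a catalytic member, had 32.7, 27.9, 28.8 and 26.8 CPM in shEif4ebp3 and 9.31, 12.2, 15.5 and 13.7 CPM in shLacZ samples, a rise of 1.20 ± 0.14 (SE; adjusted p = 3.80e-05). For both genes every knockdown sample was well above every control. The annotated transcripts of Oas1a and its paralog Oas1g are 97.5% identical over 1860 aligned positions, and Oas1a counts were fractional in all 8 samples, so its level is uncertain.

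Oasl2, a member with ubiquitin-like repeats, rose by 1.12 ± 0.14 to 28.6 ± 5.15 CPM in shEif4ebp3, against 13.2 ± 1.59 CPM in shLacZ samples (SD, n = 4 each). Oasl1, which in mouse restrains translation of Irf7 mRNA, had 42.6, 39.8, 34.9 and 48.7 CPM in shEif4ebp3 and 18.9, 21.1, 22.1 and 34.4 CPM in shLacZ samples. It had the highest mean level per kilobase of the OAS genes among the 35 in both groups and rose by 0.78 ± 0.18 (SE; adjusted p = 0.00293). Oas2 had 29.5, 27.2, 30.8 and 18 CPM in shEif4ebp3 and 18.6, 20.4, 16.6 and 12.6 CPM in shLacZ samples, a rise of 0.63 ± 0.18 (SE; adjusted p = 0.0127). Oas2 ran against the usual pattern of samples, since replicate 4 was the lowest of each group, and shEif4ebp3 replicate 4 fell within the control range.

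The Mx genes encode dynamin-like GTPases that trap viral components, and in C57BL/6 mice both are known to be defective alleles. Mx1 (chromosome 16, 97447035 to 97462907) had 11.1, 8.25, 7.32 and 13.1 CPM in shEif4ebp3 replicates 1 to 4, against 3.31, 2.62, 4.47 and 8.72 CPM in shLacZ replicates 1 to 4. It rose by 1.05 ± 0.33 (SE; adjusted p = 0.0189), with replicate 4 highest in each group and a slight overlap. The call was lost without shEif4ebp3 replicate 4 (0.89, adjusted p = 0.0562) or without shLacZ replicate 1 (0.91, adjusted p = 0.0529). Mx2 had 6.68, 5.17, 9.45 and 7.59 CPM in shEif4ebp3 and 5.42, 6.63, 7.15 and 9.86 CPM in shLacZ samples, a difference of -0.01 ± 0.22 (SE; adjusted p = 0.968), and of 0.53 under total-count scaling (adjusted p = 0.0579).

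Bst2 and Ifitm3, the membrane restriction factors, both rose. Bst2, or tetherin, which holds budding virus on the cell surface (chromosome 8, 71534255 to 71537456), had 173, 177, 185 and 187 CPM in shEif4ebp3 replicates 1 to 4, against 76.3, 86.9, 96.6 and 104 CPM in shLacZ replicates 1 to 4. Its rise of 0.99 ± 0.10 (SE) had the smallest adjusted p of the 35 genes, 1.09e-05. Ifitm3, which blocks fusion of virus in endosomes (chromosome 7, 141009586 to 141010770), had 261, 258, 291 and 249 CPM in shEif4ebp3 and 172, 181, 213 and 216 CPM in shLacZ samples, a rise of 0.44 ± 0.10 (SE; adjusted p = 0.00252). The groups were apart for both.

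Parp9 and Dtx3l, which encode an ADP-ribosyltransferase and its ubiquitin-ligase partner, lie head to head on chromosome 16. Dtx3l had 79.4, 69.4, 74.5 and 67.5 CPM in shEif4ebp3 and 69.6, 65.5, 70.3 and 66.8 CPM in shLacZ samples, a difference of 0.09 ± 0.07 (SE; adjusted p = 0.29). Parp9 rose by 0.21 ± 0.07 (adjusted p = 0.0205) to 74.7 ± 1.81 CPM in shEif4ebp3, against 64.5 ± 3.92 CPM in shLacZ samples (SD, n = 4 each). Their exons share 458 bases on opposite strands, and the Parp9 call was lost when any of shEif4ebp3 replicates 1 and 2 or shLacZ replicates 1 and 2 was left out (0.18 to 0.21, adjusted p of 0.0508 to 0.074). Parp14, a larger ADP-ribosyltransferase nearby, had 130, 102, 89.3 and 91.9 CPM in shEif4ebp3 and 63.6, 62.3, 71 and 76.5 CPM in shLacZ samples, a rise of 0.60 ± 0.12 (SE; adjusted p = 0.00174). Under total-count scaling Dtx3l was called as well, at 0.66 (adjusted p = 4.04e-05), where the median gene lay at 0.56.

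The remaining 7 genes were all higher without overlap between groups. Of all genes tested, 29.5% were called higher and 27.4% were higher without overlap. Ifi47, an immunity-related GTPase (chromosome 11, 49076587 to 49096974), had 70.5, 64.5, 58.1 and 57.7 CPM in shEif4ebp3 replicates 1 to 4, against 19.4, 17.8, 23.6 and 36.6 CPM in shLacZ replicates 1 to 4, a rise of 1.36 ± 0.20 (SE; adjusted p = 0.000153). Ifi27l2a, a small mitochondrial membrane protein gene, had 18.4, 15, 16.5 and 14.6 CPM in shEif4ebp3 and 6.09, 5.47, 7.35 and 8.26 CPM in shLacZ samples, a rise of 1.25 ± 0.14 (SE; adjusted p = 3.19e-05). Knockdown samples stayed far from controls for both. Ifi44 rose by 1.23 ± 0.16, Xaf1, a promoter of apoptosis, by 1.05 ± 0.16, and Rtp4, a chaperone of G protein-coupled receptors, by 1.03 ± 0.18. Trim30a, which restrains inflammatory signalling in mouse, rose by 1.00 ± 0.12 to 26.5 ± 3.83 CPM in shEif4ebp3, against 13.3 ± 1.52 CPM in shLacZ samples. Ifi35 changed least of these, by 0.41 ± 0.11 (adjusted p = 0.00619), and shLacZ replicate 4 was its lowest control, as for Oas2. Ifi47 shares exon bases with Olfr56 on the same strand and Rtp4 with Gm45338.

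**Figure D3:**
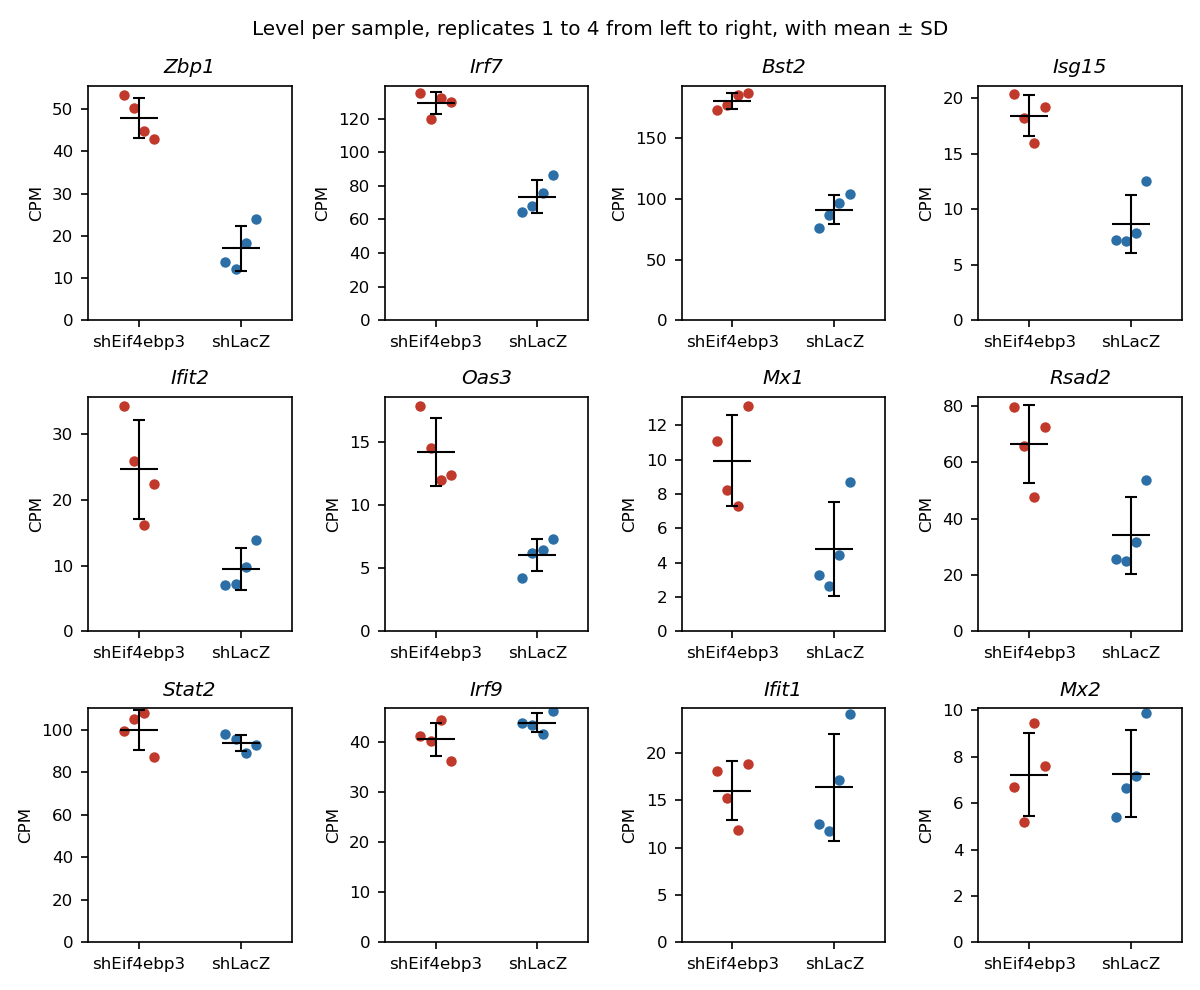
CPM per sample (points, replicates 1 to 4 from left to right) with mean and SD for 12 of the 35 genes, shEif4ebp3 in red and shLacZ in blue, all axes from 0. In the upper row the groups are apart, while Stat2, Irf9, Ifit1 and Mx2 in the lowest row overlap. The highest control is shLacZ replicate 4 for every gene shown but Stat2.

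Levels corrected for the gene lengths in the authors' table spanned 133-fold among the 35 genes in the shEif4ebp3 samples and 225-fold in the shLacZ samples. Ifitm3 led at 390 ± 27.1 CPM per kilobase in shEif4ebp3 and 288 ± 33.2 in shLacZ samples (SD, n = 4 each). Bst2 followed at 228 ± 8.39 in shEif4ebp3 and 115 ± 15.2 in shLacZ samples, and Irf7 at 67.3 ± 3.36 in shEif4ebp3 and 38.4 ± 5.07 in shLacZ samples. These 3 places held in both groups, with no overlap between neighbours. At the other end Mx1, Mx2 and Oas3 lay near 3 CPM per kilobase in the shEif4ebp3 samples (2.93, 2.99 and 3.01). Of the 34 pairs of neighbours in the order, 29 overlapped between samples in each group, so the middle order is not resolved. Zbp1 stood at place 7 in the shEif4ebp3 and at place 17 in the shLacZ order, and Irf9, tied with Dtx3l at 13.7 CPM per kilobase, at place 18 in the shEif4ebp3 and at place 6 in the shLacZ order.

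**Figure D4:**
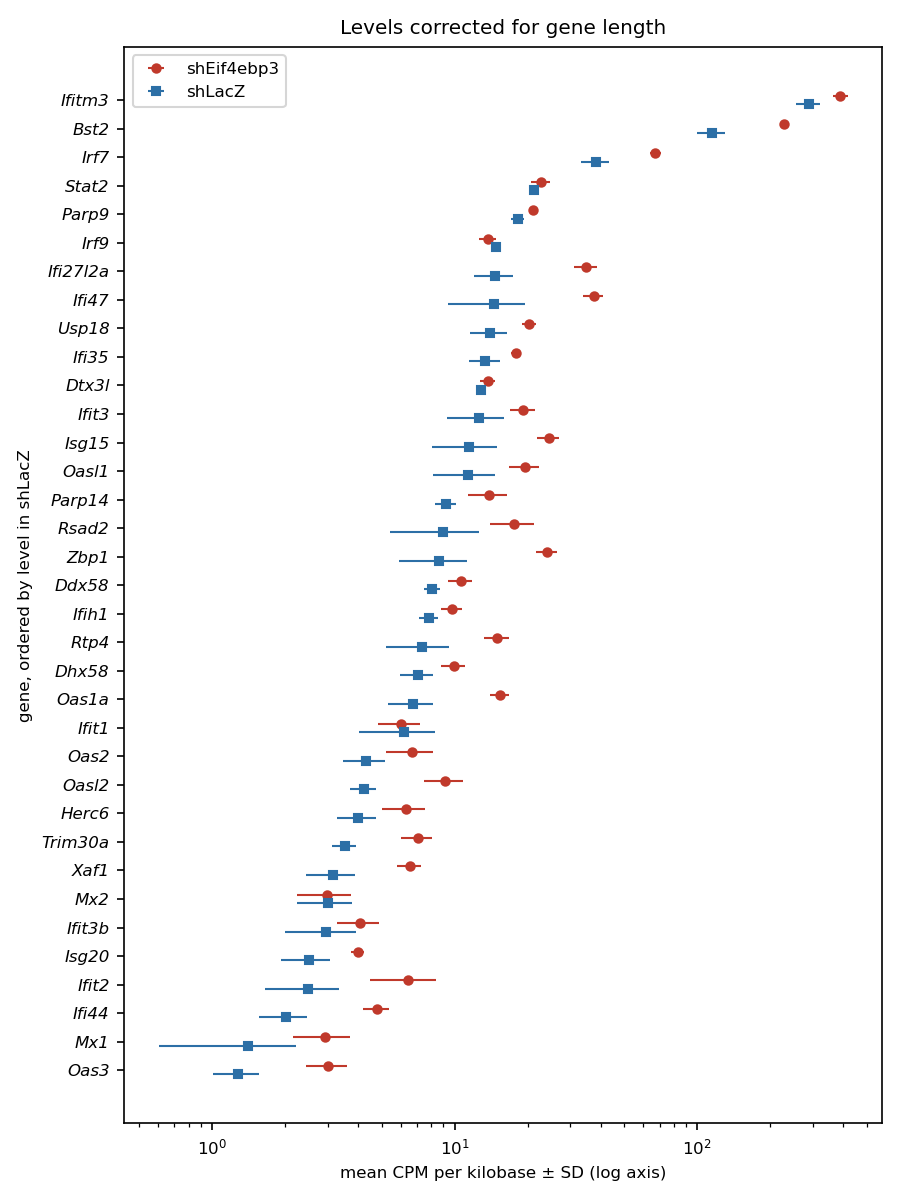
Mean CPM per kilobase with SD (log axis) of the 35 genes in shEif4ebp3 (red circles) and shLacZ (blue squares) samples, ordered by the shLacZ level. Ifitm3, Bst2 and Irf7 stand above the rest in both groups, and most other neighbours have overlapping error bars.

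Within each group many of the genes were highest in the same sample. Among the knockdown samples, replicate 1 was the highest for 23 of the 35 genes (65.7%) and for 26% of all genes tested, with a median deviation of 0.18 log2 units from the gene's group mean. Among the controls, replicate 4 was the highest for 28 of the 35 genes (80%) and for 35.4% of all genes, with a median deviation of 0.28. The same replicate had the lowest Eif4ebp3 level of the controls, whose part in these values was not tested. Without it the median log2 fold change of the 35 genes was 0.81, against 0.67 with all samples. Replicate 4 of each group has a sample code with the letter D and the others the letter C, a letter the labels leave unexplained. In the samples coded C alone the median was 0.85, and between the single D samples of each group the median log2 ratio was 0.50, with no test.

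Upstream of these genes, interferon transcripts themselves were nearly undetected. Of 21 interferon ligand genes, 20 did not pass the filter on low counts. Ifnb1 had 2 counts over the 4 shEif4ebp3 samples and 0 over the 4 shLacZ samples, which is at or under the limit of 3 counts that a count of 0 allows, and 16 of the ligand genes had 0 counts in all 8 samples. The ligand that passed was Ifng, the gamma interferon made by T and NK cells, which had 0.851, 0.523, 0.722 and 0.769 CPM in shEif4ebp3 replicates 1 to 4, against 0.048, 0, 0 and 0.183 CPM in shLacZ replicates 1 to 4. That corresponds to 96 counts in shEif4ebp3 and 5 in shLacZ samples, and Ifng was called higher (adjusted p = 0.000632).

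Of 16 genes of interferon receptors and signalling, 10 rose and 2 fell (median log2 fold change 0.60). Of all genes tested, 29.5% rose and 27.8% fell, shares that stand beside this list and those that follow. The type I receptor genes were not among those that rose under TMM scaling. Ifnar1 had 46.9 ± 3.99 CPM in shEif4ebp3 and 48.5 ± 3.52 CPM in shLacZ samples (SD, n = 4 each; adjusted p = 0.65). Ifnar2 fell by 0.39 ± 0.06 on the log2 scale (adjusted p = 0.000403), to 64 ± 2.63 CPM in shEif4ebp3, against 84.0 ± 2.44 CPM in shLacZ samples, but under total-count scaling it was higher by 0.18 (adjusted p = 0.0473). The gamma receptor chain Ifngr1 rose by 1.31 ± 0.08, Il10rb, the shared chain of the lambda interferon receptor, by 1.38 ± 0.12, and the transcription factor gene Irf8 by 1.52 ± 0.15. Tyk2 rose by 0.48 ± 0.09 and Jak1 did not pass the test (0.11 ± 0.09, adjusted p = 0.327). Irf3, the constitutive factor downstream of RNA sensors, fell by 0.43 ± 0.11 (adjusted p = 0.00665) but was at 0.14 under total-count scaling (adjusted p = 0.179).

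Of 17 genes of nucleic acid sensing, adaptors and kinases, 10 rose and 2, Mavs and Traf6, fell (median 0.86). Unc93b1, which carries Toll-like receptors to endosomes, rose by 1.00 ± 0.08, Traf3 by 0.88 ± 0.10 and the kinase gene Ikbke by 0.92 ± 0.12. Mavs, the mitochondrial adaptor of RIG-I and MDA5, had 65.3, 72.8, 95.8 and 55.4 CPM in shEif4ebp3 and 142, 135, 125 and 72.4 CPM in shLacZ samples, a fall of 0.72 ± 0.21 on the log2 scale (SE; adjusted p = 0.0138). The control that overlapped the knockdown samples was replicate 4, and under total-count scaling neither Mavs (-0.14, adjusted p = 0.51) nor Traf6 (0.17, adjusted p = 0.317) was called. Of 11 negative regulators, 8 rose and 0 fell (median 0.58). Among them Samhd1, which depletes nucleotides, rose by 1.33 ± 0.12, the phosphatase gene Ptpn1 by 0.58 ± 0.07 and Rnaseh2b by 0.90 ± 0.11.

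**Figure D5:**
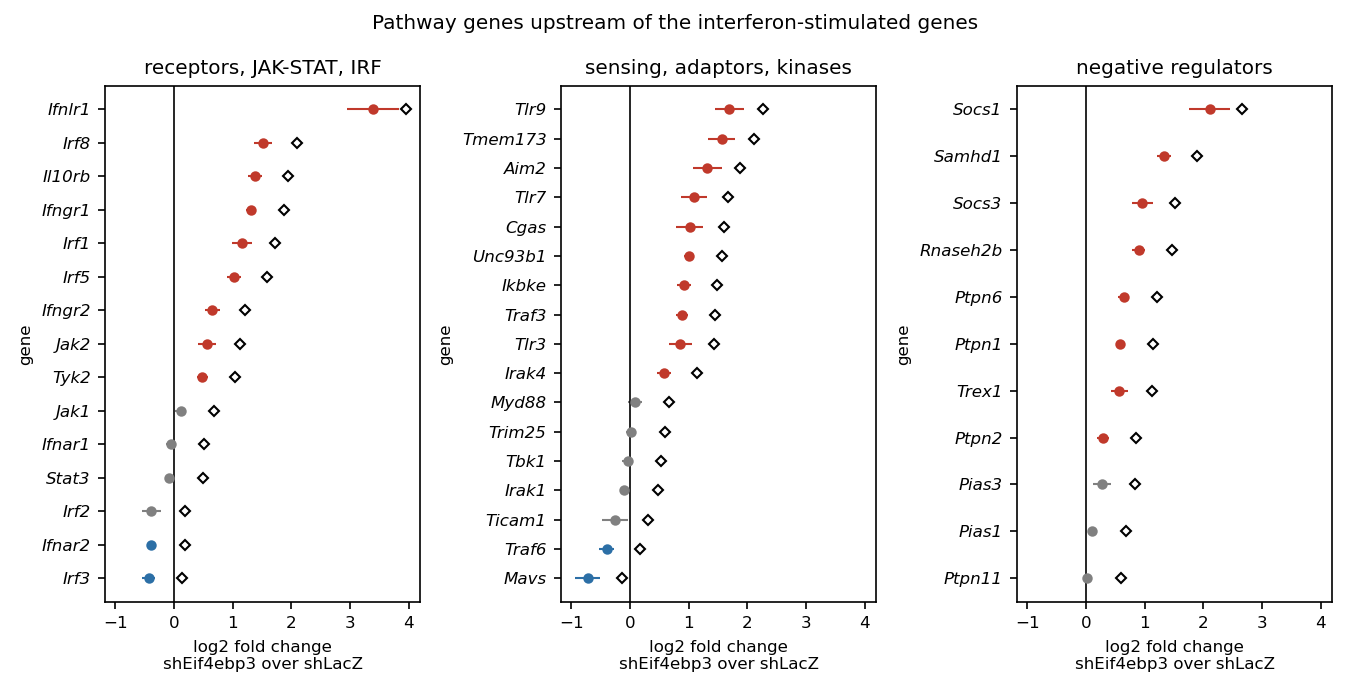
Log2 fold change with standard error, shEif4ebp3 over shLacZ, of 15 interferon receptor and signalling genes (left), sensing adaptors and kinases (middle) and negative regulators (right), red where called higher, blue where called lower and grey where not called under TMM scaling, with total-count scaling as open diamonds. Irf8 lies at 1.52 while Ifnar1 and Jak1 lie near 0, and under total-count scaling Ifnar2, Irf3 and Traf6 lie above 0 while Mavs is at -0.14.

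Of 45 other interferon-inducible genes, 31 rose and 3 fell, with a median log2 fold change of 0.59 over the 44 tested. The 3 that fell, Lgals9 (-0.32), Gm4951 (-0.55) and Xrn1 (-0.53), were at 0.25, 0.02 and 0.04 under total-count scaling. Lgals3bp, a secreted glycoprotein gene, rose by 1.31 ± 0.11, and the Schlafen genes Slfn9 and Slfn2 by 2.52 ± 0.21 and 1.53 ± 0.14. Of 16 genes that answer mainly to interferon gamma, 13 rose and 0 fell, with a median of 1.59 over the 14 tested. Cd74, the invariant chain of MHC class II, had 543 ± 92.2 CPM in shEif4ebp3 and 75.2 ± 19.5 CPM in shLacZ samples (SD, n = 4 each), a rise of 2.85 ± 0.19, and H2-Aa and H2-Ab1 rose by 2.66 ± 0.19 and 2.76 ± 0.23. The difference between these lists was not tested. Immune cells express many of these genes at rest, MHC class II in particular.

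Several lists of immune cell markers were also higher in the knockdown samples. Over all genes tested, 29.5% rose and 27.8% fell. Of 11 macrophage and Kupffer cell markers 9 rose and 0 fell, and they summed to 1010 to 1180 CPM in shEif4ebp3 and 422 to 560 CPM in shLacZ samples. Within the controls this sum was highest in replicate 2, at 560 CPM, while replicate 4, highest for most of the 35 genes, had 509 CPM. The sums of the other immune cell lists below were each highest in replicate 4 among the controls. For T and NK cells that sample had 29.9 CPM, against 15.7 to 17.0 CPM in the other controls. Among the knockdown samples, replicate 1 had the highest sum of every immune cell list but that of B cells. All 5 monocyte markers rose, summing to 55.9 to 73.6 CPM in shEif4ebp3 and 19.3 to 28.5 CPM in shLacZ samples. Of 12 T and NK cell markers 9 rose and 1, Cd4, fell, summing to 46.2 to 64.5 CPM in shEif4ebp3 and 15.7 to 29.9 CPM in shLacZ samples. Of 5 dendritic cell markers 4 rose and 0 fell, summing to 32.7 to 61.8 CPM in shEif4ebp3 and 20.3 to 25.7 CPM in shLacZ samples. Of 7 markers of plasmacytoid dendritic cells, a main source of interferon alpha, Bst2 and Irf8 rose, while Siglech (-0.99) and Ccr9 (-0.87) fell under TMM scaling and were not called under total-count scaling (-0.42 and -0.32). Bst2 is itself among the 35 genes, and this list summed to 241 to 247 CPM in shEif4ebp3 and 109 to 146 CPM in shLacZ samples. Most of that sum was Bst2 (mean 180 CPM in shEif4ebp3 and 91.0 CPM in shLacZ samples) and Irf8 (48.2 and 16.7 CPM). Tcf4 averaged 12.7 CPM in shEif4ebp3 and 15.1 CPM in shLacZ samples, and the rest of the list lay lower still. Of 5 B cell markers 0 rose and 0 fell in edgeR's test, with sums of 3.33 to 5.43 CPM in shEif4ebp3 and 2.50 to 4.75 CPM in shLacZ samples. Of 6 neutrophil markers 1 rose and 0 fell, with sums of 10 to 17.6 CPM in shEif4ebp3 and 4.11 to 9.54 CPM in shLacZ samples.

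Among cells of the liver itself, 7 of 10 stellate cell markers rose and 0 fell, with sums of 576 to 986 CPM in shEif4ebp3 and 225 to 276 CPM in shLacZ samples. Of 6 cholangiocyte markers 3 rose and 0 fell (80.1 to 115 CPM in shEif4ebp3 and 46.7 to 59.6 CPM in shLacZ samples), and of 6 endothelial markers 1 rose and 2 fell, or 2 rose and 0 fell under total-count scaling (154 to 295 CPM in shEif4ebp3 and 243 to 280 CPM in shLacZ samples). Of 10 hepatocyte markers 8 fell and 0 rose (6 fell and 2 rose under total-count scaling), with sums of 61000 to 78200 CPM in shEif4ebp3 and 75300 to 99500 CPM in shLacZ samples. No marker in these lists was at 0 in a whole group. In bulk liver, more cells of a type and more RNA per cell cannot be told apart, and the part of these cells in the interferon-stimulated genes was not tested.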

How the data were processed

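RNA from 8 liver samples was sequenced after ribosomal RNA depletion, per the labels' protocols. The submitters' processing notes name SAMtools 1.9, GATK 3.8, Bowtie2 2.2.9 and fastp 0.19.5, with the build mm10. The counting tool, its annotation and its use of strand were not stated in the labels or headers. Expected counts, estimates per gene without normalisation, were deposited by the authors, and 10.9% of them are not whole. They were rounded to whole numbers, and 645 assembled loci without a gene identifier (0.676 to 1.08% of a sample's counts) were left out. The authors also deposited their own comparison, with a fold change as a ratio, its log2 value, a p-value and an adjusted p-value per gene, per the file headers, and a gene length in bases.

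The knockdown and control livers were compared with edgeR 4.0.16 under R 4.3.3 (low counts removed by filterByExpr, TMM factors, glmQLFit and glmQLFTest, Benjamini-Hochberg over all 15375 genes tested, threshold 0.05), and a gene "rose" or "fell" only where it passed. The fit was also run on simulated counts in which a small share of genes changed, equally in both directions. Such counts do not test the choice of scaling. Alternatives used DESeq2 1.42.0, limma 3.58.1 (voom), other scaling and filters, covariates and left-out samples. Positions and exon overlaps come from GENCODE release M21, and the transcripts were aligned with Biopython 1.88. No replicate pair agreed within counting error (chi-square over degrees of freedom at least 8.94). Same-numbered samples did not clearly deviate together (correlations of -0.13, -0.04, 0.06 and 0.15), which cannot exclude a pairing by design. The main fit used no pairing. The 35 genes, the gene lists and the naming rule were chosen with earlier results of these data known. Every one of the 35 genes is named, with up to 3 called genes of smallest p from each related interferon list. Ifnar1, Ifnar2, Jak1, Tyk2, Irf3 and Ifnb1 are always named. Mavs, Traf6, Lgals9, Gm4951, Xrn1, Cd4, Siglech and Ccr9 were named after their values were seen, as the few genes of a list that fell. Of the list symbols, 3 were not matched. The values of 1 gene of the receptor and signalling list, which is kept in the list's counts, are not reported here. Of the 35 genes, 12 share exon bases with another gene and 22 have fractional counts in a sample. Protein sequences were not used here.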

Additional observations from a re-analysis of the deposited data

Results flagged for a closer look

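In a group of 4 samples, a sample was set apart when its gap to the nearest other exceeded Dixon's 95% critical share of the group's range, which chance gives in about 1 of 20 groups. Of 70 groups from the 35 genes, 3 held such a sample. Isg15 had 12.6 CPM in shLacZ replicate 4, against 7.15 to 7.87 CPM in the other controls. Herc6 had 24.4 CPM in shLacZ replicate 4, against 17.2 to 17.7 CPM in the other controls. Ifit3b had 10.6 CPM in shEif4ebp3 replicate 1, against 7.04 to 7.56 CPM in the other knockdown samples. Of 99 groups from a part of the other listed genes, 4 held one. Ifnar1 had 52.9 CPM in shEif4ebp3 replicate 3 (others 44.6 to 45.2), and Csf3r had 11.3 CPM in shEif4ebp3 replicate 1 (others 7.31 to 7.84). C1qc had 160 CPM in shEif4ebp3 replicate 4 (others 176 to 179), and Itgax had 6.76 CPM in shLacZ replicate 4 (others 1.97 to 2.52). Some listed genes outside these 99 groups also met the rule in shLacZ replicate 4. The 4 are therefore not a rate over all other genes.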

How the results depend on the processing

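Of the 35 genes, 0 were called lower under any alternative run. The count called higher, 29, was 33 with total-count scaling, 30 in the samples coded C alone, 14 against a minimum of 1.5-fold and 27 to 30 with 1 sample left out. The median log2 fold change of the 35 genes, 0.67, was 1.23 with total-count scaling, 0.85 in the samples coded C alone, 0.50 in the samples coded D alone (1 per group, no test, chosen after seeing the data), and 0.64 to 0.81 with 1 sample left out, the highest without shLacZ replicate 4. DESeq2, limma-voom, other size factors, other filters and the assembled loci left the count at 29.

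With the replicate number as a block 28 genes were called higher, Parp9 being lost (0.21, adjusted p = 0.0504), and the block changed no other call among the 35. Whether the numbers pair the samples by design is not known. In the 6 related interferon lists 73 genes were called higher and 7 lower, against 45 and 0 with the minimum fold, 95 and 0 with total counts, and 70 to 75 and 7 to 9 with 1 sample left out. Over all genes 4528 were higher and 4272 lower, against 9823 and 1189 with total counts, 2399 and 1322 with the minimum fold, and 4091 to 4811 and 3764 to 4492 with 1 sample left out.

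Differences near 0 changed sign. Irf9 was at 0.45 with total counts. Ifit1 was at 0.04 with upper-quartile factors, 0.53 with total counts, 0.01 in voom, 0.00 under the block, 0.00 with the code letter, 0.13 in the samples coded C and -0.16 to 0.21 with 1 sample left out. Mx2 was at 0.06 with upper-quartile factors, 0.53 with total counts, 0.01 with no filter, 0.01 with the code letter, 0.15 in the samples coded C and -0.16 to 0.17 with 1 sample left out. The values with total counts hold the shift of the median gene under that scaling, 0.567. The cause of the other sign changes was not tested. At the depth of these samples, interferon ligands at 0 to 2 counts were not resolved.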
